A study of Eurytemora affinis with 4 samples.

Results

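The 210 loci described here were transcribed loci of the copepod *Eurytemora affinis* whose RNA was at least 8 times more abundant in adult females than in adult males. They were taken from the authors' deposited Cuffdiff table of 61672 loci, assembled stretches of a scaffold that give rise to transcripts. Of these, 41996 were tested, 27789 of the tested loci had scaffold coordinates that occur once in the table, 16145 of those spanned 1000 to 20000 bases, and 3582 of those reached 5 FPKM in females. FPKM is a level of fragments scaled by transcript length and by library depth. The last step kept the 210 loci in which the female FPKM was at least 8 times the male FPKM, and the 3372 loci below that ratio are called the matched loci. Female and male FPKM chose the members, so the members were chosen by the very difference between the sexes, which is given as a description with no test.

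Poly(A) RNA was sequenced from 4 libraries of pooled whole adults from culture, 2 of females and 2 of males. Culture was at 13 °C and a salinity of 15 PSU, with a light phase of 15 h and a dark phase of 9 h. The sexes were kept apart for the last 2 days. For the final 24 h they had no food but beads of 6.0 µm (120 µL per L), given to clear the gut. The number of animals in a pool and their mating state are not given in the labels. The deposited tables hold 1 pooled FPKM per sex for each locus and the authors' own comparisons, so the values below carry no replicate error and the depth per library is unknown. Whether the pools stem from separate cultures is not in the labels, and the authors' p-values may measure technical spread alone. In whole animals, fewer cells of a type and less RNA per cell cannot be told apart.

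*E. affinis* is a calanoid copepod with separate sexes, and its female carries the eggs in a sac. In egg-laying crustaceans, RNA found mainly in adult females includes that of the ovary and its oocytes, which store maternal transcripts for the embryo, and RNA for yolk proteins such as vitellogenin, which in crustaceans can be made in the ovary or outside it. No gene name accompanies a locus ID in the deposited tables. The members are given by ID and scaffold position, and none could be placed in such a group.

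In females the members ranged from 5.01 to 2415 FPKM, with a median of 20.2 FPKM. In males they ranged from 0 to 70.4 FPKM, with a median of 0.885 FPKM. Most members were thus of moderate abundance, far below the highest. In females 47 members lay below 10 FPKM, 133 at 10 to 100 FPKM and 30 at 100 FPKM or more. The matched loci had a median of 12.4 FPKM in females against 9.56 FPKM in males. In males 114 members lay below 1 FPKM and 10 below 0.1 FPKM, against 3 and 0 of the 3372 matched loci. The rule keeps the male FPKM of the matched loci from falling near 0 (lowest 0.732 FPKM), so this contrast largely follows from the selection.

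A few loci held much of the summed level. The 10 members highest in females made up 44.9% of the summed female FPKM of all 210, and the highest alone made up 15.1%. Levels implied by the edgeR values of the authors' deposited table were summed over all Cuffdiff loci with such a value. The 210 members took 4.33% of this sum in females but 0.187% in males. For the matched loci these shares were 27.4% and 23.9%.

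The locus highest in females was GENE_0115309 on Scaffold145, bases 94491 to 97422, with 2415 FPKM in females against 70.4 FPKM in males. It was also the member highest in males, so that its male level lay above the female level of most members. Another 3 members followed at close levels in females. GENE_0153029 on Scaffold452, bases 182801 to 184062, stood at 677 FPKM in females against 22.4 FPKM in males. GENE_0146993 on Scaffold386, bases 217649 to 220644, stood at 675 FPKM in females against 28.1 FPKM in males. GENE_0138572 on Scaffold30, bases 199477 to 200663, stood at 658 FPKM in females against 28.4 FPKM in males. The male level of these loci was 3.31%, 4.16% and 4.32% of the female level.

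The next members lay between 345 and 548 FPKM in females. GENE_0105302 on Scaffold1, bases 3568954 to 3573372, stood at 548 FPKM in females against 20.6 FPKM in males. GENE_0156457 on Scaffold5, bases 946574 to 954933, stood at 539 FPKM in females against 11.5 FPKM in males. GENE_0153743 on Scaffold46, bases 1827917 to 1829715, stood at 529 FPKM in females against 35.6 FPKM in males. Its male level was 6.73% of the female level, the largest share among these 10 loci. GENE_0144299 on Scaffold357, bases 411271 to 412715, stood at 418 FPKM in females against 15.1 FPKM in males. GENE_0113690 on Scaffold137, bases 203302 to 205673, stood at 378 FPKM in females against 8.05 FPKM in males. GENE_0108767 on Scaffold111, bases 858731 to 861649, stood at 345 FPKM in females against 12.8 FPKM in males. Its 2 neighbours among the members are described with the runs. Each of these 10 loci had 1 listed isoform.

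**Figure D1:**
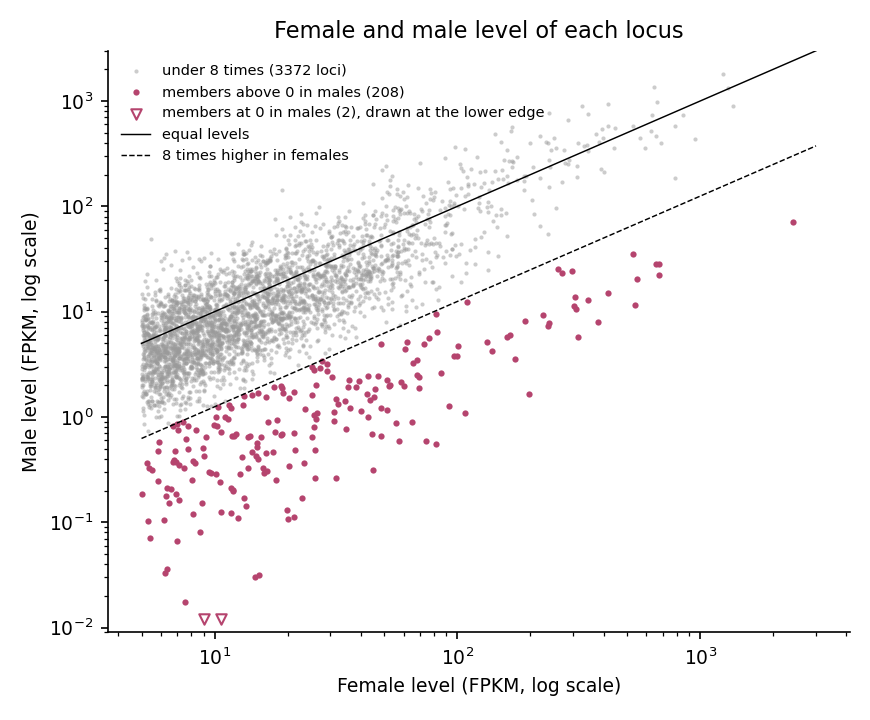
Female level (horizontal axis, FPKM, log scale) against male level (vertical axis, FPKM, log scale), one point per locus, 1 pooled value per sex. The 208 members above 0 in males (pink) lie below the dashed line of 8 times higher in females, and the 2 members listed at 0 in males are drawn at the lower edge. The 3372 matched loci are grey.

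The male level followed the female level. Across the 210 members Spearman's rho between female and male FPKM was 0.79, a description across loci that share their libraries and whose ratio the selection bounds. The male level had a median of 3.75% of the female level, with quartiles of 2.28% and 6.40% and a highest value of 12.3%. The median of this share was 4.54% in the 70 members lowest in females (5.01 to 13.1 FPKM), 3.73% in the middle 70 (13.2 to 38.3 FPKM) and 3.66% in the highest 70 (39.5 to 2415 FPKM). Its spread was narrower at the top, with quartiles of 2.57% and 4.59% in the highest 70 against 2.01% and 7.80% in the lowest 70. Across members, rho between the female level and the male share was -0.051. The male share of the matched loci had a median of 70.1%.

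Counted along the log2 ratio of female over male FPKM, the members did not simply tail off from the limit of 3 that stands for 8 times. The interval from 3 to 3.5 held 31 loci and that from 3.5 to 4 held 24. From 4 to 4.5 there were 28 loci, from 4.5 to 5 there were 49, and from 5 to 5.5 there were 27. The fullest interval corresponds to a male level of 3.13% to 4.42% of the female level. Above it, 18 loci lay from 5.5 to 6, 20 from 6 to 7 and 11 at 7 or more, and the 2 members listed at 0 in males have no ratio. Just below the limit, 177 matched loci lay from 2 to 3.

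The same rule with the sexes exchanged gave another profile. Of 3306 loci of at least 5 FPKM in males, 282 were at least 8 times higher in males, or 8.53%, against 5.86% of 3582 for females. Their median log2 ratio, with loci at 0 counted as above all others, was 8.89, against 4.74 for the female side. At a log2 ratio of 7 or more lay 167 of the 282 male loci and 11 of the 210 female ones, and a further 37 and 2 were listed at 0 in the other sex. The 2 sets share the libraries and the scaling, and the difference between them was not tested.

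**Figure D2:**
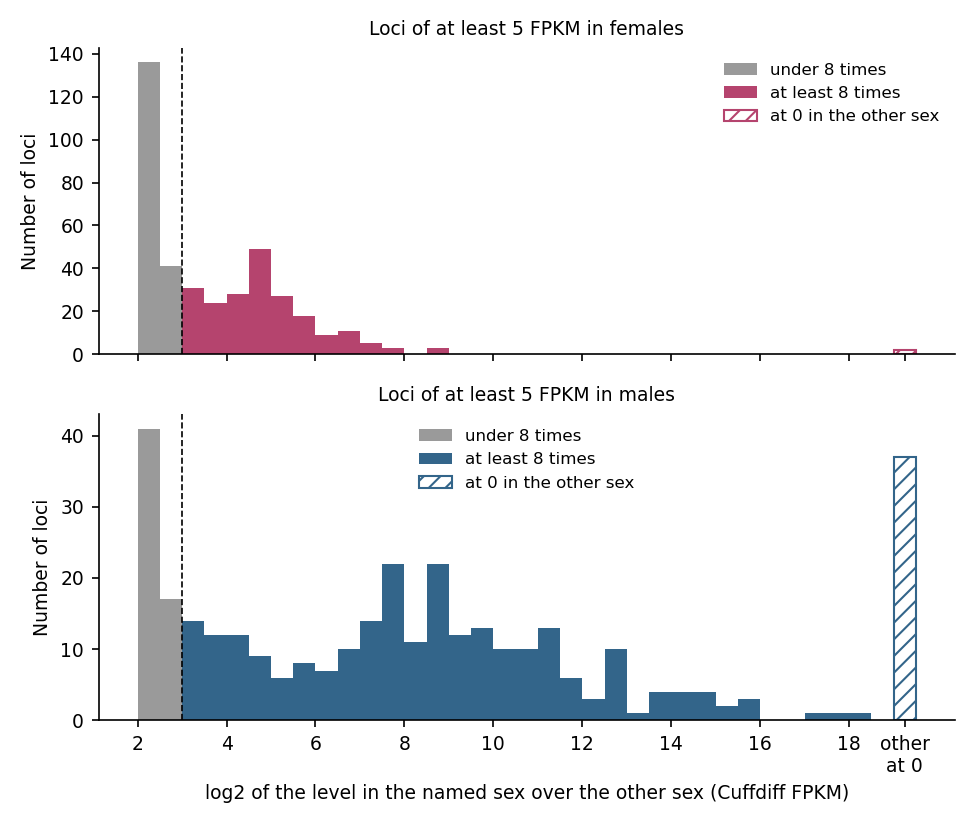
Number of loci (vertical axes, which differ in scale) by the log2 ratio of the level in the named sex over the other sex (horizontal axis, intervals of 0.5). Among loci of at least 5 FPKM in females (top) the fullest interval beyond the limit of 3 holds 49 loci, at 4.5 to 5. Among loci of at least 5 FPKM in males (bottom) 167 of the 282 loci past the limit lie at 7 or more, and 37 are at 0 in females (hatched bar).

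The largest female-to-male ratios stood among members of low to moderate level. GENE_0132983 on Scaffold259, bases 516571 to 520069, stood at 14.6 FPKM in females against 0.0306 FPKM in males, a male level of 0.209% of the female level. GENE_0157629 on Scaffold509, bases 156586 to 159126, stood at 7.58 FPKM in females against 0.0174 FPKM in males, or 0.229%. GENE_0151796 on Scaffold438, bases 330812 to 332142, stood at 21.2 FPKM in females against 0.111 FPKM in males, or 0.523%. GENE_0140454 on Scaffold318, bases 71466 to 77084, stood at 6.23 FPKM in females against 0.033 FPKM in males, or 0.53%. The other of these 5, GENE_0145846 on Scaffold372, had a male level of 0.21% of the female level. The male values of these 5 loci lay between 0.0174 and 0.111 FPKM. By the edgeR fold change their male shares were larger, from 0.372% for GENE_0145846 to 2.53% for GENE_0151796. Cuffdiff did not call GENE_0157629 female-biased.

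Just 2 members were listed at 0 in males. GENE_0108759 on Scaffold111, bases 815866 to 817170, had 10.6 FPKM in females, and GENE_0156087 on Scaffold494, bases 172366 to 173389, had 9.03 FPKM. No ratio is given for them. Their log2 fold changes of males over females in the authors' deposited edgeR table, made in gene map mode, were -5.77 and -5.29. In the authors' other edgeR mode, Trinity mode, they were -12.46 and -11.90. With 0 listed in males, neither pair of values is a measured male share.

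Among the 5 members highest in males, 4 were among the 10 highest in females. The other was GENE_0153758 on Scaffold46, bases 2001011 to 2002992, with 261 FPKM in females against 25.3 FPKM in males, a male level of 9.70%.

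At the limits of the selection the values ran on without a step. The members closest to the ratio of 8 were GENE_0123874 on Scaffold2 (27.8 FPKM in females, 3.43 FPKM in males), GENE_0123575 on Scaffold197 (6.98 and 0.857 FPKM) and GENE_0068464 on Scaffold248 (6.75 and 0.826 FPKM), with ratios of 8.11 to 8.16. Just outside stood GENE_0017642 on Scaffold271 (11.0 FPKM in females, 1.40 FPKM in males), GENE_0147751 on Scaffold396 (58.3 and 7.51 FPKM) and GENE_0167449 on Scaffold69 (9.66 and 1.28 FPKM), with ratios of 7.58 to 7.86. At the limit of 5 FPKM, GENE_0002866 (5.01 FPKM in females), GENE_0109431 (5.26 FPKM) and GENE_0155203 (5.32 FPKM) were inside. GENE_0139024 (4.99 FPKM), GENE_0149750 (4.90 FPKM) and GENE_0139424 (4.88 FPKM) were outside.

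The authors' own tests on the same libraries called nearly all members. Cuffdiff called 206 of the 210 female-biased at an adjusted p under 0.05 in the authors' deposited table, and 10.4% of all tested loci. The edgeR comparison in gene map mode called 200 of the 210 female-biased at the same limit, and 9.58% of all loci of that authors' deposited table. The authors' set of loci shared by 3 methods (Cuffdiff and 2 modes of edgeR) held 194 of the 210, against 3.16% of loci tested by both tools that stood in it as female-biased. These contrasts are those that chose the members, so the counts describe and support nothing.

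In size Cuffdiff and edgeR in gene map mode ran together, with edgeR in that mode giving a somewhat smaller median difference. In the authors' deposited edgeR table the log2 fold change of males over females ran from -8.07 to -2.06 with a median of -4.54. The median from the FPKM of the 208 members above 0 in males was -4.73. The matched loci were shifted the same way, with medians of -0.26 in the authors' deposited edgeR table and -0.51 from the FPKM. In the authors' deposited edgeR table all 210 members were lower in males, and 189 had a log2 fold change of -3 or lower. By the edgeR fold change, the male level was a median of 4.28% of the female level and at most 24.0%. Spearman's rho between the tools was 0.86 across 208 members, which share their libraries. In the third method, edgeR in Trinity mode, the 194 members of the authors' deposited shared set had log2 fold changes from -12.79 to -2.88 with a median of -4.82.

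For 36 of the 210 members the male level implied by edgeR lay below 0.25 CPM (a count scaled to the library's size), as against 1 of 3320 matched loci. The rule also bounds the male FPKM of the matched loci from below, so this contrast largely follows from the selection. At levels below 0.25 CPM the size of the fold change rests on the small prior count that edgeR adds to each library, and it is no bound. The limit of 0.25 was chosen after the values were seen.

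**Figure D3:**
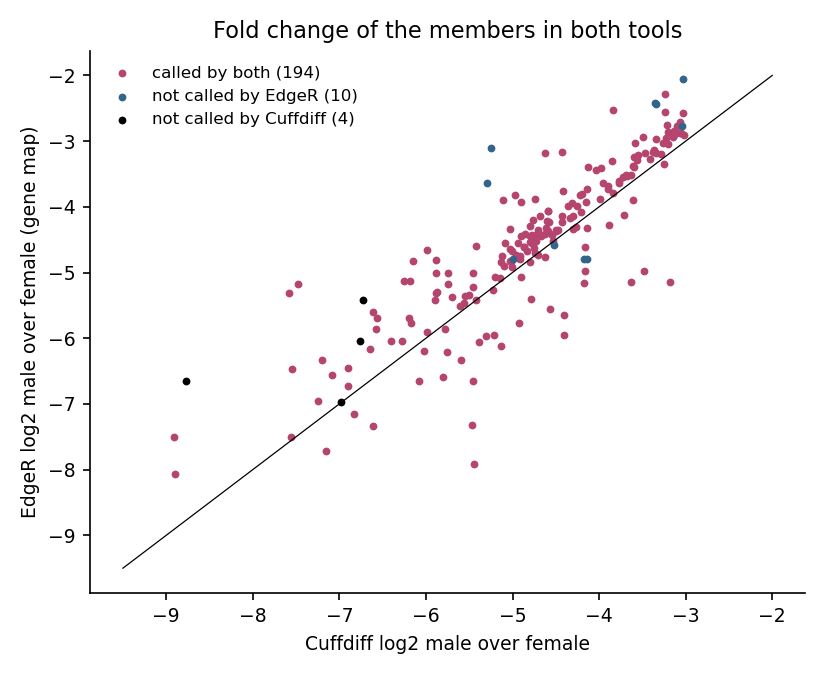
Log2 fold change of males over females from Cuffdiff (horizontal axis) and from the authors' edgeR gene map comparison (EdgeR in the plot) (vertical axis) for the 208 members above 0 in males, with the line of equal values. The 10 members edgeR did not call (blue) include the highest edgeR value, -2.06, and the 4 that Cuffdiff did not call (black) have Cuffdiff values of -6.73 or lower.

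The 16 members outside the shared set fell into 3 kinds. Those that edgeR did not call were 10 loci of low level by the edgeR CPM. In females they had 5.92 to 25.2 FPKM, with a median of 8.50 FPKM. Their average log2 CPM over the libraries ran from 0.96 to 2.16 in the authors' deposited table, against a median of 4.93 for the 200 called members. Their edgeR adjusted p values in the authors' deposited table ran from 0.0673 to 0.813. The highest belonged to GENE_0080400 on Scaffold49, bases 198563 to 204146, with 15.0 FPKM in females against 0.397 FPKM in males. GENE_0113710 on Scaffold137, bases 352280 to 353338, had the highest female level of the 10, 25.2 FPKM against 0.642 FPKM in males, with an edgeR adjusted p of 0.565 in the authors' deposited table. These 2 loci were chosen after their values were seen.

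Cuffdiff did not call 4 members that edgeR called, and these had some of the largest ratios. Their male levels ran from 0.229% to 0.943% of the female level, and their Cuffdiff adjusted p values in the authors' deposited table from 0.32 to 0.45. The most abundant of the 4, GENE_0000497 on Scaffold194, bases 718891 to 725934, stood at 74.0 FPKM in females against 0.585 FPKM in males. It was chosen after its values were seen. Its edgeR adjusted p was 4.30e-38 and its Cuffdiff adjusted p was 0.418 in the authors' deposited tables. The others were GENE_0161522, GENE_0157629 and GENE_0175730. The remaining 2 members outside the shared set, GENE_0176496 and GENE_0000817, were called by Cuffdiff and by edgeR in gene map mode. Their male levels were 12.0% and 10.6% of the female level.

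The members were shorter on their scaffolds than the matched loci, within the limits that the selection set. Their span had a median of 2949 bases with quartiles of 1678 and 5610, against a median of 4000 bases for the matched loci. Of the members, 34.3% spanned less than 2000 bases and 6.19% more than 10000, against 25.4% and 16.5% of the matched loci. Span includes introns, so it is no transcript length. The longest members were GENE_0148246 on Scaffold4, bases 1698674 to 1714879, at 16206 bases, GENE_0163648 on Scaffold606, bases 75137 to 91013, at 15877 bases, and GENE_0069404 on Scaffold43, bases 1489924 to 1504618, at 14695 bases. In females these had 6.95, 51.4 and 9.65 FPKM, and in males 0.373, 2.27 and 0.296 FPKM. The shortest were GENE_0125916 on Scaffold207, bases 164629 to 165637, at 1009 bases, GENE_0156087 at 1024 bases and GENE_0140687 on Scaffold32 at 1025 bases. Across members, rho was 0.081 between span and male share and -0.11 between span and female level.

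Most members were listed with a single isoform, that is, one assembled transcript. This held for 187 of the 210, and 23 (11.0%) had 2 or more, against 26.5% of the matched loci. Longer loci had more isoforms in both sets, so the shares were set side by side over the same spans. At 1009 to 1952 bases, 4.29% of 70 members and 6.37% of 816 matched loci had 2 or more isoforms. At 1957 to 4604 bases these shares were 7.14% of 70 and 18.4% of 1038, and at 4610 to 16206 bases 21.4% of 70 and 41.9% of 1369. The share of members was lower in each of the 3 ranges, and the difference was not tested. In the longest range the matched loci were still longer, with a median span of 7977 bases against 6699 for the members. Counting only isoforms of at least 1 FPKM in one sex, 4.29% of the members and 14.7% of the matched loci had 2 or more.

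**Figure D4:**
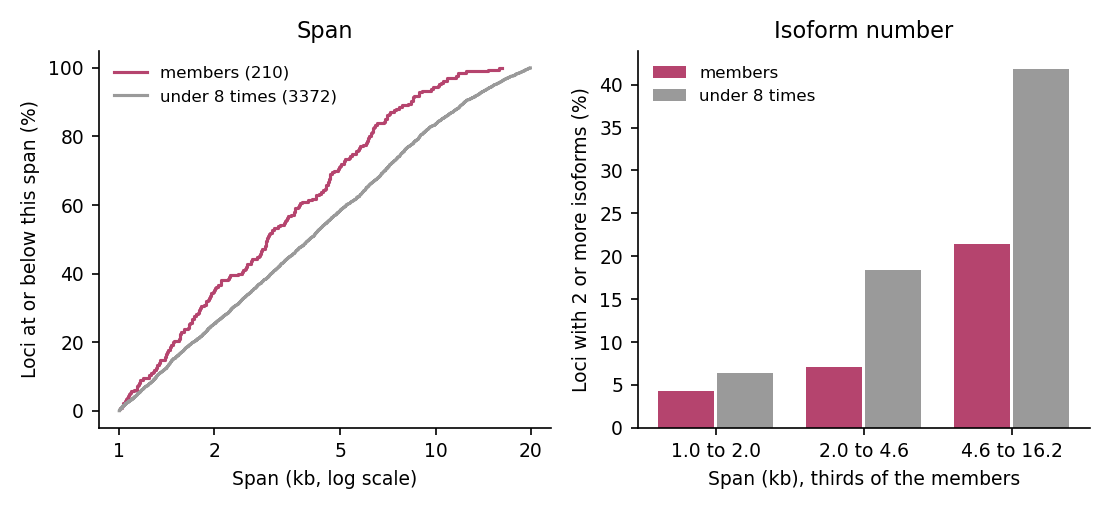
Left, the percentage of loci at or below each span (horizontal axis, kb, log scale) for the 210 members (pink) and the 3372 matched loci (grey). Right, the percentage of loci with 2 or more isoforms in 3 ranges of span that each hold 70 members. Members lie to the left of the matched loci in span, and their isoform share is the lower one in each range, 21.4% against 41.9% in the longest.

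In the 23 members with several isoforms, one transcript usually held the level by the Cuffdiff FPKM. How edgeR divides the level among isoforms was not examined. There were 70 isoforms in all, of which 35 reached 1 FPKM in females and 8 did so in males. The isoform highest in females held a median of 98.5% of the locus's female level, and at least 90% in 16 of the 23 loci. The isoform highest in females was also the highest in males in 18 of the 23 loci. By the Cuffdiff FPKM, 10 of the 70 isoforms were higher in males than in females, none of them above 0.475 FPKM in males. The authors' deposited edgeR isoform table did not share this direction. There, those with a value were lower in males except CUFF.48587.6, at a log2 fold change of males over females of 0.127. CUFF.31634.1 had -4.85 and CUFF.48587.2 had -3.75.

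GENE_0000817 on Scaffold25, bases 737984 to 742634, had the most isoforms, 7, with 11.6 FPKM in females against 1.23 FPKM in males at the locus. Its isoform CUFF.32044.8 stood at 8.12 FPKM in females against 0.377 FPKM in males, and CUFF.32044.7 had 2.24 and 0.637 FPKM. A different isoform was thus the highest in each sex. GENE_0104498 on Scaffold311, bases 446284 to 458722, had 6 isoforms, with 31.6 FPKM in females against 0.264 FPKM in males at the locus. Of these, CUFF.41844.5 stood at 23.9 FPKM in females against 0.161 FPKM in males, and CUFF.41844.4 had 6.68 and 0.0871 FPKM.

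GENE_0036576 on Scaffold37, bases 1092259 to 1104056, also had 6 isoforms, with 11.5 FPKM in females against 1.31 FPKM in males at the locus, and CUFF.48587.1 held 99.7% of the female level. GENE_0031282 on Scaffold55, bases 1509059 to 1513681, had 4 isoforms and the most even split of the 23 loci. Its highest isoform in females, CUFF.66394.4, had 12.2 FPKM or 46.8% of the locus, and 0.163 FPKM in males. Its highest in males was CUFF.66394.3, with 0.536 FPKM against 5.60 FPKM in females. GENE_0008651 on Scaffold247, bases 711949 to 714908, was the most abundant locus with 3 isoforms, at 139 FPKM in females against 4.25 FPKM in males, and CUFF.31634.2 held 99.2% of its female level.

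Cuffdiff called 202 of the 235 tested isoforms of members female-biased, and 8.95% of all tested isoforms, in the authors' deposited isoform table. The single isoform was called in 184 of the 187 members with 1 isoform. In the 23 members with several, at least 1 isoform was called in 17.

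The members were spread over 145 scaffolds, of the 719 that held a member or a matched locus. A single member stood on 104 scaffolds, 2 stood on each of 25, and 3 or more on each of 16. The largest number was 5, on Scaffold4, which also held many matched loci, so that members made up 9.43% of its 53 loci of either kind. Among these 16 scaffolds, Scaffold249 and Scaffold570 had the highest such share, with 3 members of 4 loci each, followed by Scaffold137 with 3 of 6 and Scaffold111 with 3 of 8, all chosen after their values were seen. On Scaffold249 the members lay far apart, at bases 30480 to 37605 (14.9 FPKM in females, 0.523 FPKM in males), 315708 to 317169 (19.8 and 0.13 FPKM) and 640631 to 642831 (7.59 and 0.624 FPKM).

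Another member lay within 50000 bases of 57 of the 210 members, or 27.1%. Of the matched loci 3.29% had a member that close. Within 10000 bases the shares were 13.8% and 0.949%. Widening the distance to 100000 bases added no member to the 57, while the share of matched loci rose to 6.47%. The tables do not say whether neighbouring loci are parts of 1 gene, so pairs are given as positions only, and the difference was not tested. Among 31 pairs of neighbouring members up to 50000 bases apart, the gap had a median of 9136 bases and was under 2000 bases in 9. The female levels of a pair differed by a median of 2.40-fold and by up to 26.0-fold, and 13 of the 31 pairs lay within 2-fold.

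There were 4 runs of 3 or more members with gaps of at most 50000 bases, 13 members in all. The run on Scaffold32, bases 577186 to 597793, was the tightest, with 4 members separated by gaps of 380 to 606 bases and no other tested locus. From its start, GENE_0140686 (bases 577186 to 584102) stood at 13.5 FPKM in females against 0.141 FPKM in males. GENE_0140687 (bases 584709 to 585733) had 51.1 and 1.16 FPKM. GENE_0140688 (bases 586114 to 595900) had 15.8 and 0.328 FPKM, and GENE_0140690 (bases 596481 to 597793) had 14.8 and 0.428 FPKM. The male levels were 1.04% to 2.90% of the female levels, below the median of all members in each case. The most abundant of the 4, GENE_0140687, was also among the shortest of all members.

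On Scaffold115, bases 862568 to 883991, 3 members stood with 1 other tested locus. GENE_0109429 (bases 862568 to 865979) stood at 7.11 FPKM in females against 0.163 FPKM in males. GENE_0109431 (bases 871116 to 876052) had 5.26 and 0.367 FPKM, and GENE_0104345 (bases 876803 to 883991) had 10.6 and 0.722 FPKM. The latter pair, 750 bases apart, had nearly equal male shares of 6.97% and 6.79%. The tested locus between the first and the second, GENE_0109430, spanned 868400 to 868589, too short for the selection. Its level was 20.8 FPKM in females, with 0 listed for males.

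On Scaffold570, bases 107973 to 136673, 3 members stood among 5 tested loci. GENE_0052298 (bases 107973 to 109859) stood at 44.4 FPKM in females against 0.684 FPKM in males. GENE_0161520 (bases 128138 to 129919) had 25.7 and 0.798 FPKM, and GENE_0161522 (bases 134862 to 136673) had 6.98 and 0.0659 FPKM. Between them lay GENE_0161517, at 0.899 FPKM in females with 0 listed for males, which Cuffdiff called female-biased. Also between them lay GENE_0085095, with similar levels in the sexes at 8.24 FPKM in females against 6.72 FPKM in males. The run was thus interrupted by GENE_0085095, a locus without the female excess.

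The run on Scaffold111, bases 815866 to 861649, was the widest, with 3 members among 7 tested loci and gaps of 18682 to 21834 bases between members. GENE_0108759, listed at 0 in males, opened it with 10.6 FPKM in females. GENE_0108763 (bases 839005 to 840048) stood at 13.2 FPKM in females against 0.171 FPKM in males. GENE_0108767, with 345 and 12.8 FPKM, closed it. The levels within this run differed more than in the others. Of the 4 other tested loci, GENE_0108762 stood at 1.27 FPKM in females against 0.812 FPKM in males, and GENE_0108760 was listed at 0 for females and at 1.03 FPKM for males. The remaining 2 loci, at 0.275 and 0.232 FPKM in females with 0 listed for males, were called female-biased by Cuffdiff in the authors' deposited table. The authors' deposited edgeR table used here has a value for GENE_0108762 alone of the 4, with an adjusted p of 0.899.

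**Figure D5:**
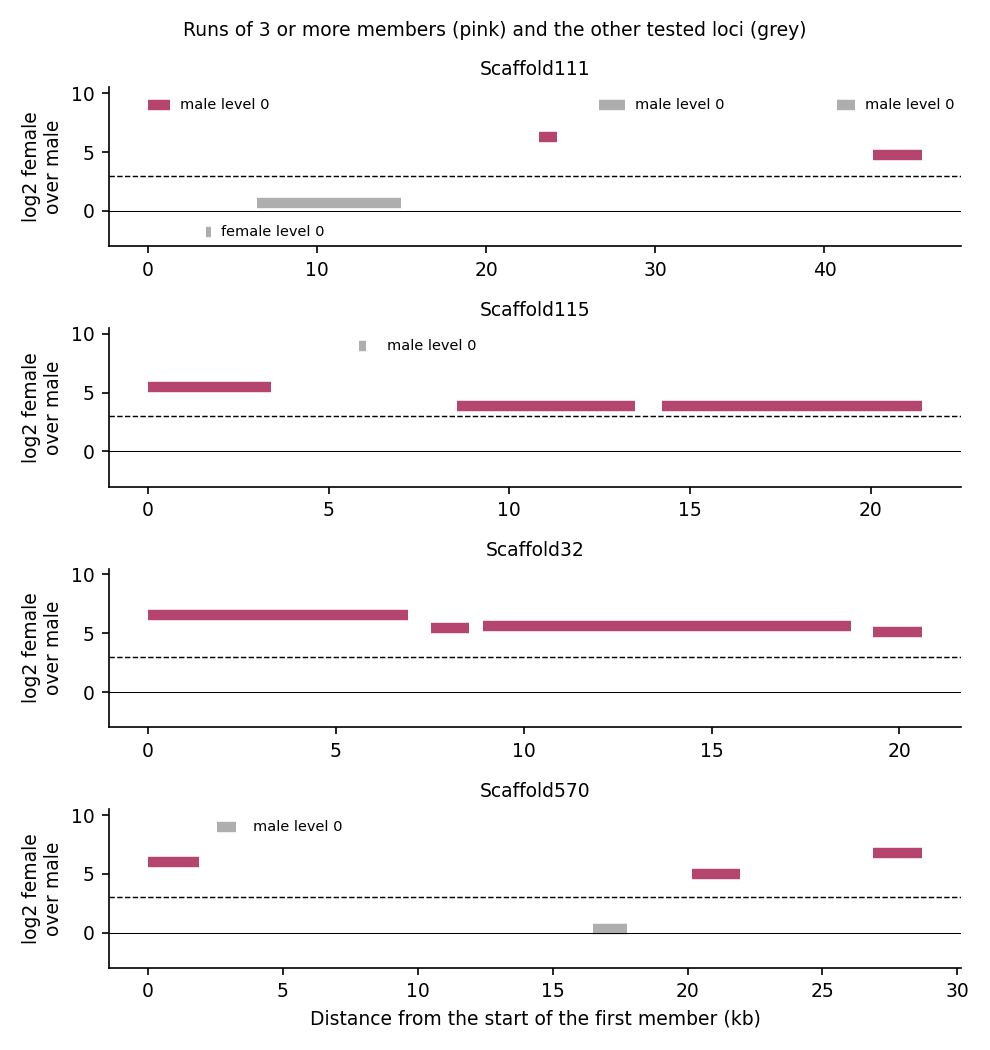
The 4 runs of 3 or more members, each locus drawn as a bar from its start to its end (horizontal axis, kb from the start of the first member) at its log2 ratio of female over male FPKM (vertical axis). Members (pink) lie above the dashed line of 3, with none between the 4 members on Scaffold32. Loci at 0 in one sex are drawn at the upper or lower edge and marked.

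Around the members, tested loci were somewhat sparser than around the matched loci. The nearest tested locus lay a median of 2392 bases away for members and 982 bases for matched loci. A tested locus stood within 10000 bases of 87.6% of members and 93.3% of matched loci. Leaving the members themselves out, 445 tested loci lay within 10000 bases of a member, and Cuffdiff called 97 of them (21.8%) female-biased in the authors' deposited table. Within 10000 bases of a matched locus the share was 16.2% of 8697, and over all tested loci it was 10.4%. The median log2 ratio of males over females of these flanking loci was -0.65 beside members and -0.36 beside matched loci. The 2 sets of flanking loci overlap, and the difference was not tested. Those beside members include loci too short for the selection, such as GENE_0109430 on Scaffold115 with 20.8 FPKM in females and 0 listed for males.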

How the data were processed

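Per the submitters' processing notes, the authors used TopHat, Cufflinks, edgeR and Cuffdiff, named without versions. No source used here names the genome build. Per the labels' protocols, the libraries kept the strand through dUTP marking. The authors' Cuffdiff tables give FPKM pooled per sex, a log2 fold change and p-values, raw and adjusted. Per the file headers, the authors' edgeR tables give a log2 fold change, an average log2 CPM and both kinds of p-value.

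In the Cuffdiff locus table the first ID column names isoforms at the same coordinates for 61664 of 61672 loci and the second for 15458, so the first was used to join tables. All 210 members joined. All 6733 loci of the table named for the gene map mode stand in that named for the Trinity mode, whose fold changes equal the gene map values of all 1343 shared loci and the Trinity values of 0. That table was used as the complete gene map comparison, with 37449 loci, and Trinity values were taken from the shared set. Some cells of the p-value columns share the smallest value the authors' tool gave, 0.000859 for the Cuffdiff adjusted p, which 188 members have.

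Levels per sex implied by the authors' edgeR values were computed from the average log2 CPM and the fold change and include its prior count. No test was run. Starts were raised by 1 to count from 1. Distances are gaps between loci on 1 scaffold. Named loci are the 10 highest in females, the 5 with the largest ratio, the 5 highest in males, those at 0 in males, the 3 longest and 3 shortest, the 5 with most isoforms (ties by female level), all members of runs, and the 3 on each side of the ratio and female FPKM limits; every other locus named was chosen after its values were seen. Members and lists were chosen with earlier results of these data known. The gene lists planned (yolk, egg envelope, meiosis and cell cycle, germ line, histones, zinc fingers, proteases) were not tested, since no names pair with the loci. Rule and distance code was tested on simulated loci. Alternatives covered the limits of the rule, the thresholds of the calls, pseudocounts, isoform and distance limits. Tools were Python 3.11.15 with pandas 2.3.3, numpy 2.4.6, matplotlib 3.10.9 and scipy 1.17.1.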

Additional observations from a re-analysis of the deposited data

How the results depend on the processing

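The rule's limits set the number of loci: 387 at a ratio of at least 4, 362 at a female level of at least 1 FPKM and 404 with loci of shared coordinates kept, against 210. A ratio of 16 gave 155, 10 FPKM gave 163 and spans of 500 to 50000 bases gave 276. The share called by edgeR was 89.0% at an adjusted p under 0.01 and 85.7% under 0.001, against 95.2%. That called by Cuffdiff was 91.4% under 0.01, against 98.1%. The median log2 ratio of males over females was -3.50 with 1 FPKM added, -4.60 with 0.1 FPKM added and -4.54 by edgeR, against -4.73; an added value shrinks the ratio of low levels by construction, and the cause of the edgeR value was not tested. The median male share was 4.28% by edgeR, against 3.75%. With isoforms of at least 1 FPKM, 4.29% of members had 2 or more, against 11.0%. Within 10000 bases, 13.8% had another member, against 27.1% within 50000. In all, 13 of 24 alternatives moved a count by less than 1.5 times or kept a value within its 95% interval over loci (binomial for shares, from order statistics for medians). Those intervals treat loci as independent although they share their libraries. Members overlap no other locus, so the alternatives that left out overlapping loci could change nothing, yet they count among the 13 and the 24. An alternative chosen after seeing the data kept the 169 members whose edgeR level is possible for their span, with 94.1% called by edgeR and a median male share of 3.72%. No paired analysis was possible because the tables hold no value per library, and for that reason no library could be left out. Depth is unknown, which limits male levels near 0.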

Other observations

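Another 194 loci met every part of the rule except that they share their coordinates with another locus, and are not among the members. The 2 tools disagreed on the amount of RNA at some members. Dividing the female CPM implied by edgeR by the female FPKM would roughly give the transcript length in kilobases if both tools had counted the same reads and scaled them alike. For 41 of 210 members (19.5%) the result was larger than the whole span of the locus, against 13.5% of 3320 matched loci, and it reached 155.7 kilobases for GENE_0061446, which spans 2900 bases. Among the 3 longest members it was 51.6 kilobases for GENE_0069404 and 20.4 for GENE_0163648, both above the span. For GENE_0148246 it was 4.88, below the span. For GENE_0109431, in the run on Scaffold115, it was 26.1 against a span of 4937 bases. The quotient had a median of 0.665 for the 10 members edgeR did not call, against 1.96 for the 200 it called.

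At all deposited digits, 10 members shared their edgeR log2 fold change and average log2 CPM with another member, in 5 pairs. Rounded to 5 decimals, this held for 16 members in 8 pairs. GENE_0069785 and GENE_0154759 lie 30115 bases apart on Scaffold476 and span 1139 and 1138 bases. Both had a log2 fold change of -4.79 and an average log2 CPM of 1.55 in the authors' deposited table, whereas their FPKM were 8.09 in females and 0.254 in males for the former and 11.8 and 0.653 for the latter. The other 4 of the 5 pairs each lie on 2 scaffolds. One member, GENE_0163494, began at base 1 of Scaffold6005 with 31.1 FPKM in females and 0.911 FPKM in males.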
